A study of Mus musculus with 8 samples.

Results

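Of 49315 genes counted in 8 mouse kidney libraries, 10 are described here: 8 genes by which the embryonic kidney stroma is recognised, or through which it acts (Foxd1, Tbx18, Meis1, Meis2, Tcf21, Fat4, Ntn1 and Aldh1a2), and the platelet-derived growth factor receptors Pdgfra and Pdgfrb. They were chosen by name, with earlier results of these data known. All 10 were found in the deposited counts and passed the filter on low counts. The libraries came from kidneys labelled control (n = 4) or conditional knockout of Kdm1a (n = 4). Kdm1a encodes LSD1, a histone demethylase that acts in repressor complexes. The study asks how gene regulation in the kidney changes when it is lost. The Cre driver, strain, age and sex of the animals, and any allele that both groups share, are not given in the sources used here.

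The stroma of the developing kidney is the mesenchyme around the nephron progenitors and ureteric branches. Cells that express Foxd1 give rise to interstitial fibroblasts, pericytes, mesangial cells and vascular smooth muscle. Stromal cells signal to the nephron progenitors through the cadherin Fat4 and to the ureteric tips through retinoic acid made by Aldh1a2. Pdgf receptors are tyrosine kinases of mesenchymal cells: Pdgfra is typical of interstitial fibroblasts, and Pdgfrb is also high in pericytes and mesangial cells.

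Libraries held 19524945 to 28544511 counts. Kdm1a (ENSMUSG00000036940) was at 113 ± 4.77 CPM (counts scaled to a library of 1000000) in controls and 93.6 ± 1.88 CPM in knockouts (mean ± SD, n = 4 each). All 4 knockouts lay below all 4 controls (exact two-sided permutation p = 0.0286, the smallest that 4 against 4 allows). A read from any Kdm1a exon counts here, whether or not the allele deletes that exon. The log2 fold change was −0.27 (adjusted p 0.0194), and it stayed called in 3 of the 8 analyses made with 1 library removed. The tissue label was met by kidney markers in every library: Six2, of the nephron progenitors that are used up around birth, was at 96.9 to 219 CPM. Of 5 such progenitor markers 1 was called, Cited1, which fell from 71.7 ± 34.5 to 23.1 ± 2.10 CPM (log2 fold change −1.64, adjusted p 0.0225). Tmem100 had a log2 fold change of −0.63 (adjusted p 0.0508). The other 3 went the opposite way and were not called: Six2 (0.47), Crym (0.40) and Eya1 (0.19). The median over the 5 markers was 0.19. Summed over 6 proximal tubule markers, levels were 259 to 1049 CPM in controls and 26.3 to 169 CPM in knockouts, and all 6 fell. Control replicate 2 was the lowest control at 259 CPM and knockout replicate 3 the highest knockout at 169 CPM. These libraries also stood side by side, at 9.6 and 9.7, on the first principal component of all tested genes, while the other controls lay at −78.7 to −52.4 and the other knockouts at 48.3 to 68.4. Y-linked transcripts were near 0 in control replicate 2 and in knockout replicates 1 and 4. Germ cell transcripts stood out in control replicate 2, with Dazl at 7.60, Ddx4 at 7.05 and Sycp3 at 10.9 CPM. Elsewhere these genes reached at most 0.396, 1.52 and 1.52 CPM. Of 8 gonad and germ cell markers 4 were tested and 0 were called. The 8 summed to 46.8 CPM in this control, to 54.2 CPM in knockout replicate 1 (Inha, 49.8 CPM) and to 16.5 to 27.5 CPM elsewhere. Any bearing of these transcripts on the 10 genes was not tested. Endothelial markers summed to 413 to 641 CPM in controls and 287 to 482 CPM in knockouts. All 6 had a log2 fold change below 0, with a median of −0.44, and 1 was called. Ureteric bud markers summed to 400 to 564 CPM in controls and 558 to 683 CPM in knockouts. Of these 5 markers 4 had a log2 fold change above 0, with a median of 0.27, and 1 was called. The sum of 10 adrenal markers was 2685 CPM in knockout replicate 1, 366 CPM in knockout replicate 4, 147 CPM in control replicate 4 and 15.3 to 20.9 CPM in the other 5 libraries. The sum of 6 Schwann cell and neuron markers was 78.6 and 115 CPM in knockout replicates 1 and 4 and 11.0 to 23.0 CPM in the other 6 libraries, and Prph, a neuronal filament gene, was called higher (log2 fold change 3.55, adjusted p 0.0400).

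Of the 10 genes, 6 rose in the knockout at an adjusted p under 0.05, termed a call (edgeR quasi-likelihood test, adjusted over 18485 genes): Ntn1, Fat4, Pdgfra, Meis1, Aldh1a2 and Foxd1. None of the 10 was called lower, against 8.27% of all genes tested. Meis2 and Tbx18 were higher on average and were not called, and Tcf21 and Pdgfrb stayed within 0.06 of 0 on the log2 scale. Over all genes tested, 6.61% were called higher and 14.9% were called in either direction. The 4 knockout libraries all lay above the 4 controls for 5 of the 10 genes, against 9.29% of all genes tested, or 18.9% with separation in either direction. The median log2 fold change was 0.81 over the 10 genes and 0.00 over all genes tested. In whole-tissue RNA, more cells of a type and more RNA per cell cannot be told apart.

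**Figure D1:**
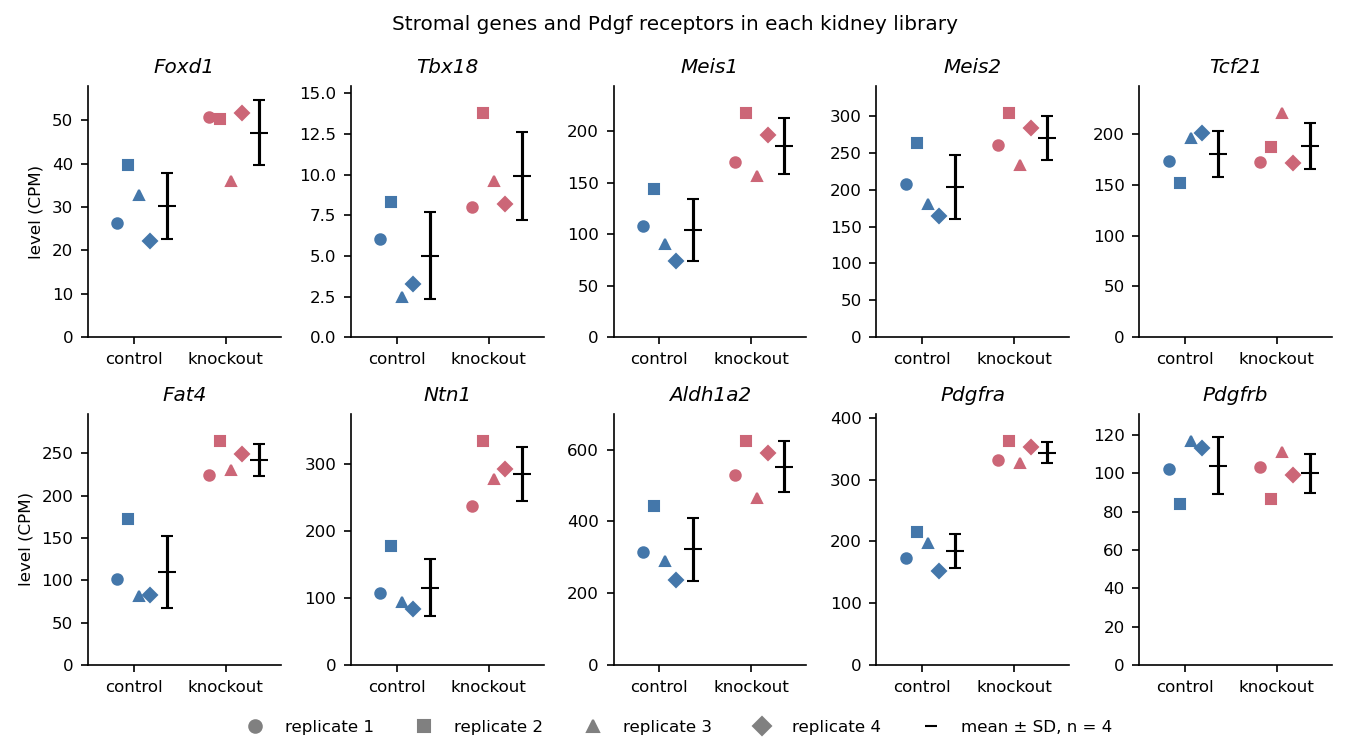
Level of each of the 10 genes in CPM (vertical axes from 0) in the 4 control (blue) and 4 knockout (red) libraries, with a marker shape per replicate number and the mean ± SD beside each group. For Meis1, Fat4, Ntn1, Aldh1a2 and Pdgfra all knockouts lie above all controls, and control replicate 2 is the highest control in 8 of the 10 panels.

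Foxd1 (ENSMUSG00000078302, chromosome 13, 98354242 to 98356703, GRCm38, plus strand) encodes the forkhead factor that defines cortical stromal progenitors. It was at 26.3, 39.6, 32.7 and 22.2 CPM in control replicates 1 to 4 and at 50.7, 50.3, 35.9 and 51.7 CPM in knockout replicates 1 to 4. Knockout replicate 3 lay below control replicate 2, and the other 3 knockouts lay above every control. The log2 fold change was 0.64 (SE 0.18, adjusted p 0.0477), 1.56-fold.

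Tbx18 (ENSMUSG00000032419, chromosome 9, 87702800 to 87731260, minus strand), a T-box factor of the mesenchyme around the ureter, was the least abundant of the 10. Its levels were 6.02, 8.30, 2.50 and 3.27 CPM in controls and 7.98, 13.8, 9.62 and 8.17 CPM in knockouts, from 62 to 278 counts per library. Knockout replicates 1 and 4 lay just under control replicate 2. The log2 fold change of 0.97 (SE 0.37) was not called (adjusted p 0.0958).

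Meis1 and Meis2 encode TALE homeodomain factors found throughout the renal stroma. Meis1 (ENSMUSG00000020160, chromosome 11, 18879817 to 19018985, minus strand) was at 108, 144, 90.7 and 73.6 CPM in controls and 170, 218, 157 and 197 CPM in knockouts. The groups did not overlap, and the log2 fold change was 0.83 (SE 0.19, adjusted p 0.0274). Meis2 (ENSMUSG00000027210, chromosome 2, 115863064 to 116065839, minus strand) was at 207, 263, 180 and 164 CPM in controls and 260, 304, 234 and 283 CPM in knockouts. Control replicate 2 lay above knockout replicates 1 and 3, and the log2 fold change of 0.41 (SE 0.15) was not called (adjusted p 0.0842).

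The ratio of Meis1 to Meis2, each per kilobase of exon, is independent of library scaling. It was 0.597, 0.625, 0.576 and 0.514 in controls and 0.747, 0.820, 0.769 and 0.795 in knockouts. Every knockout ratio was above every control ratio, by 0.44 on the log2 scale on average (exact two-sided permutation p = 0.0286, unchanged at 0.0286 after adjustment over the 2 ratios tested). Relative to Meis2, Meis1 was thus higher in the knockouts, while Meis2 stayed the more abundant of the pair in all 8 libraries. The 2 genes share 0 windows of 50 bases in annotated transcripts.

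Tcf21 (ENSMUSG00000045680, chromosome 10, 22817279 to 22820128, minus strand), a basic helix-loop-helix factor of stroma and podocytes, did not follow the others. It was at 174, 152, 196 and 201 CPM in controls and 173, 187, 221 and 172 CPM in knockouts, and the groups overlapped. The log2 fold change was 0.06 (95% interval −0.19 to 0.31, adjusted p 0.730), which allows a fold of 0.875 to 1.24. Of 6 podocyte markers 2 were called, both lower, Nphs1 by 1.92 and Podxl by 1.13 on the log2 scale. The other 4 were not called, and of these Wt1 alone had a log2 fold change above 0 (0.04, adjusted p 0.826). The sum of the 6 was 396 to 601 CPM in controls and 292 to 362 CPM in knockouts. The part of podocyte markers in the Tcf21 level was not tested.

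Upstream sequence was compared for the 8 genes present in the RefSeq promoter table of GRCm38, using the 250 bases before the annotated start. Ntn1 and Pdgfrb were not matched. Foxd1, Pdgfra and Tcf21 are shown as the stromal progenitor factor, the gene with the smallest adjusted p and a gene that was not called. Capitals mark matches, on either strand, to the MEIS core TGACAG, the forkhead motif GTAAACA, the TEAD motif GGAATG, the retinoid receptor half-site AGGTCA, the GC box GGGCGG or the TATA box TATAAA. The windows are chr13:98353995-98354244 (plus strand), chr5:75152001-75152250 (plus) and chr10:22820144-22820393 (minus).
Foxd1: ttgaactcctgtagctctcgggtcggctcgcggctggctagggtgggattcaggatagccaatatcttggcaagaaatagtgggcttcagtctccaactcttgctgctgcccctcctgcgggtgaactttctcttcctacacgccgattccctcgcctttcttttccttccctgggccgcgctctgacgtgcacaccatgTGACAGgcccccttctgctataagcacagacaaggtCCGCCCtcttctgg
Pdgfra: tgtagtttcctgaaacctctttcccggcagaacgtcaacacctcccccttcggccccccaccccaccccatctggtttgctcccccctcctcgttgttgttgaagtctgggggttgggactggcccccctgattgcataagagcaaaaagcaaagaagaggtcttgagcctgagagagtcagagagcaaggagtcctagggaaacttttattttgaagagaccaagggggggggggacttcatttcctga
Tcf21: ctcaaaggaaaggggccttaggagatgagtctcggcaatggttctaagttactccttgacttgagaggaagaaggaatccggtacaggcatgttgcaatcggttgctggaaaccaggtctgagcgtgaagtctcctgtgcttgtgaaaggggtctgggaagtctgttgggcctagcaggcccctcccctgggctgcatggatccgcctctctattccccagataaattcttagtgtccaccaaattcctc
Of the 8 genes, 1 held the MEIS core (Foxd1), against 15.9% of 32851 promoter windows. Foxd1 also held the GC box, present in 32.7% of all windows, and Meis2 held the TATA box, present in 12.4%. None of the 8 held the forkhead, TEAD or half-site letters, present in 3.2%, 12.6% and 14.0% of all windows. The windows differed in CpG dinucleotides, from 4 in Pdgfra and 5 in Tcf21 to 40 in Aldh1a2, with a median of 6 over all windows. Pdgfra and Aldh1a2, at opposite ends of this range, both rose, and a relation of CpG content to the changes was not tested.

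Fat4 and Ntn1 act outside the cell and had the largest changes. Fat4 (ENSMUSG00000046743, chromosome 3, 38886940 to 39011985, plus strand), the atypical cadherin through which stroma signals to nephron progenitors, was at 102, 172, 81.8 and 82.4 CPM in controls and 224, 265, 230 and 249 CPM in knockouts. The lowest knockout was 1.30 times the highest control, and the log2 fold change was 1.14 (SE 0.22, adjusted p 0.0191). Ntn1 (ENSMUSG00000020902, chromosome 11, 68209364 to 68400823, minus strand), the secreted guidance cue netrin-1, was at 108, 177, 94.1 and 82.9 CPM in controls and 237, 335, 277 and 293 CPM in knockouts. Its log2 fold change was 1.30 (SE 0.23, adjusted p 0.0144), 2.47-fold, the largest of the 10. In both genes the controls varied widely among themselves, with a coefficient of variation of 39.0% for Fat4 and 36.6% for Ntn1, and control replicate 2 stood above the other 3. The knockouts varied by 7.79% and 14.3%.

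Of 14 genes listed as Fat4 partners and Hippo pathway effectors, 13 were tested and 2 were called, both higher. Over all genes tested 14.9% were called in either direction. The median log2 fold change of the list was 0.16. Dchs1, the cadherin that binds Fat4, rose from 63.3 ± 4.24 to 80.8 ± 8.43 CPM (n = 4 each, log2 fold change 0.35, adjusted p 0.0331). Yap1, a transcriptional effector of the Hippo pathway, rose from 198 ± 13.7 to 240 ± 7.20 CPM (log2 fold change 0.28, adjusted p 0.0261). Both changes were under 1.3-fold. Of 10 other netrins and netrin receptors found, 8 were tested, 1 was called higher and 1 lower, with a median of −0.04. Over all genes tested 6.61% were called higher and 8.27% lower. The membrane-anchored netrin-G genes moved apart: Ntng1 rose from 14.4 ± 9.16 to 39.6 ± 9.21 CPM (log2 fold change 1.46, adjusted p 0.0351), and Ntng2 fell from 5.72 ± 1.85 to 3.18 ± 0.112 CPM (−0.85, adjusted p 0.0402). The receptor genes Unc5a, Unc5b, Unc5c and Neo1 had log2 fold changes of −0.38, −0.20, 0.13 and 0.18 and were not called. Unc5d, at 0.954 to 1.30 CPM in controls and 1.39 to 3.11 CPM in knockouts, lay just outside the threshold, with no overlap between groups (0.96, adjusted p 0.0555). The secreted netrin Ntn4 was at 14.4 to 32.4 CPM in controls and 8.48 to 16.3 CPM in knockouts and was not called either (−0.91, adjusted p 0.0556).

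Aldh1a2 (ENSMUSG00000013584, chromosome 9, 71215789 to 71296243, plus strand) encodes retinaldehyde dehydrogenase RALDH2, which makes retinoic acid in cortical stroma. Its levels were 316, 443, 291 and 237 CPM in controls and 530, 625, 464 and 591 CPM in knockouts. The groups were separated by a narrow gap, the lowest knockout being 1.05 times the highest control. The log2 fold change was 0.78 (SE 0.18, adjusted p 0.0267), 1.72-fold.

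Of 14 other genes of retinoic acid synthesis and response, 4 were called higher and none lower, against 6.61% and 8.27% of all genes tested. The median log2 fold change of the 14 was 0.35. The other retinaldehyde dehydrogenases, Aldh1a3 and Aldh1a1, rose from 128 ± 27.8 to 244 ± 26.5 CPM (log2 fold change 0.93, adjusted p 0.0132) and from 15.6 ± 7.68 to 33.2 ± 5.07 CPM (1.09, adjusted p 0.0381). Crabp2, which carries retinoic acid to its receptors, rose from 12.1 ± 1.90 to 25.5 ± 4.26 CPM (1.08, adjusted p 0.0101). Rarg, a retinoic acid receptor, rose from 36.3 ± 4.08 to 48.5 ± 2.16 CPM (0.42, adjusted p 0.0219). For these 4 genes, as for Aldh1a2, all knockouts lay above all controls, as did 9.29% of all genes tested. The gap was negligible for Aldh1a1, where the highest control and the lowest knockout both rounded to 26.9 CPM. Rara, Rarb and Rxra had log2 fold changes of −0.06, 0.14 and −0.01 and were not called, nor was the retinoic acid degrading enzyme Cyp26b1 (0.44, adjusted p 0.429). At an unadjusted p under 0.05 there were 5 higher and 1 lower.

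The Pdgf receptors parted. Pdgfra (ENSMUSG00000029231, chromosome 5, 75152292 to 75198215, plus strand) was at 173, 215, 197 and 152 CPM in controls and 332, 363, 327 and 352 CPM in knockouts. The lowest knockout was 1.52 times the highest control, the widest gap of the 10, and the log2 fold change was 0.90 (SE 0.10, adjusted p 0.00575). Pdgfrb (ENSMUSG00000024620, chromosome 18, 61045150 to 61085061, plus strand) was at 102, 83.8, 117 and 113 CPM in controls and 103, 86.8, 111 and 99.1 CPM in knockouts. Its log2 fold change was −0.06 (95% interval −0.32 to 0.20, adjusted p 0.746), so that folds outside 0.803 to 1.15 lie beyond the interval.

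Per kilobase of exon, the ratio of Pdgfra to Pdgfrb was 0.930, 1.40, 0.918 and 0.735 in controls and 1.77, 2.29, 1.61 and 1.94 in knockouts. The receptors were thus near parity in controls, and Pdgfra led in every knockout. The ratio was 1.95-fold higher in knockouts, by 0.96 on the log2 scale (exact two-sided permutation p = 0.0286, adjusted over the 2 ratios 0.0286). The receptors share 0 windows of 50 bases in annotated transcripts.

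**Figure D2:**
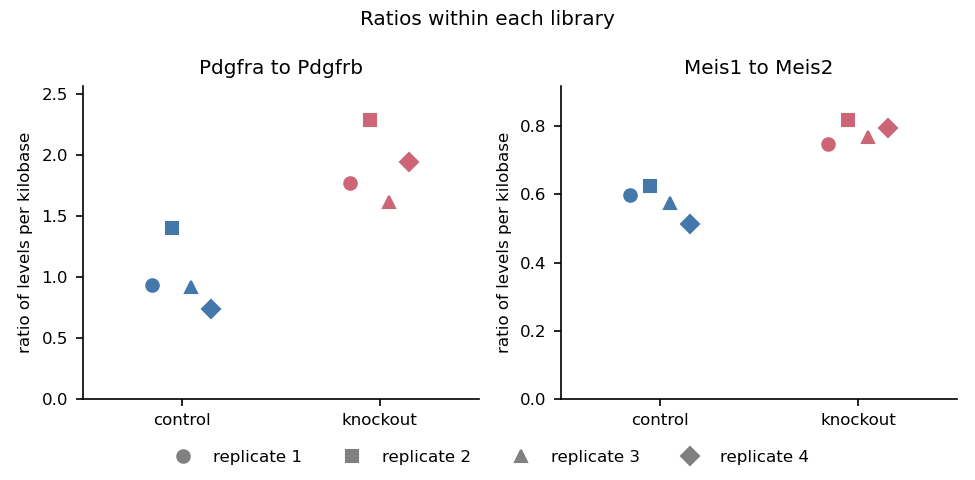
Ratio of levels per kilobase of exon within each library (vertical axes from 0), for Pdgfra to Pdgfrb (left) and Meis1 to Meis2 (right), in 4 control and 4 knockout libraries. The highest control ratios, both in replicate 2, are 1.40 and 0.625, below the lowest knockout ratios of 1.61 and 0.747.

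Of the 4 Pdgf ligand genes, 0 were called by edgeR, against 14.9% of all genes tested. An unadjusted p under 0.05 was found for 1 (Pdgfb, lower, log2 fold change −0.47, adjusted p 0.0909). DESeq2 and limma-voom each called 1. Pdgfa and Pdgfc, the ligands of Pdgfra with the highest levels here, were at 82.0 ± 8.87 and 109 ± 19.0 CPM in controls and 72.4 ± 6.02 and 117 ± 17.2 CPM in knockouts. Their log2 fold changes were −0.18 and 0.10. The ligand sum was 228 to 241 CPM in controls and 218 to 238 CPM in knockouts.

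Annotated exons of other genes overlap 4 of the 10, and without a stated strand setting their reads cannot be told apart. Genes on the opposite strand cover 20.56% of the exonic bases of Tbx18 (D030062O11Rik), 8.51% of Meis1 (Gm16140), 7.04% of Fat4 (C230034O21Rik) and 4.55% of Pdgfra (Gm42802), and Gm37818 covers 9.77% of Meis1 on the same strand.

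Levels per kilobase of exon place the genes in order. In controls Tcf21 (148 ± 18.5 CPM per kilobase) and Aldh1a2 (142 ± 38.6) led, and their difference was within the spread. Pdgfrb (19.0 ± 2.73), Pdgfra (18.4 ± 2.73), Ntn1 (18.4 ± 6.74) and Meis2 (16.9 ± 3.61) formed a middle group that did not differ beyond the spread. Foxd1 (12.3 ± 3.08), Meis1 (9.88 ± 2.85) and Fat4 (6.38 ± 2.49) followed, and ranked in that order in every control library. Tbx18 was lowest (1.06 ± 0.563). In knockouts Aldh1a2 (244 ± 31.4) stood above Tcf21 (154 ± 18.8), and Ntn1 (45.5 ± 6.49) and Pdgfra (34.3 ± 1.72) stood above Meis2 (22.5 ± 2.50). Foxd1 (19.2 ± 3.05), Pdgfrb (18.2 ± 1.83) and Meis1 (17.6 ± 2.58) did not differ beyond their spread, and Fat4 (14.1 ± 1.10) and Tbx18 (2.09 ± 0.569) came last.

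Within a genotype, Tcf21 and Pdgfrb ran against most of the other 8 genes. Control replicate 2 was the highest control for the 8 genes with a log2 fold change of 0.41 or more and the lowest for Tcf21 and Pdgfrb. Control replicate 4 was the lowest control for 6 of the 10. Among knockouts, replicate 2 was the highest for 7 of the 10 and replicate 3 the lowest for 5, while Tcf21 and Pdgfrb were highest in knockout replicate 3. The proximal tubule sum ran the other way at these ends, being lowest of its group in control replicate 2 (259 CPM) and knockout replicate 2 (26.3 CPM) and highest in control replicate 4 (1049 CPM) and knockout replicate 3 (169 CPM). Its part in the differences between genotypes was not tested.

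**Figure D3:**
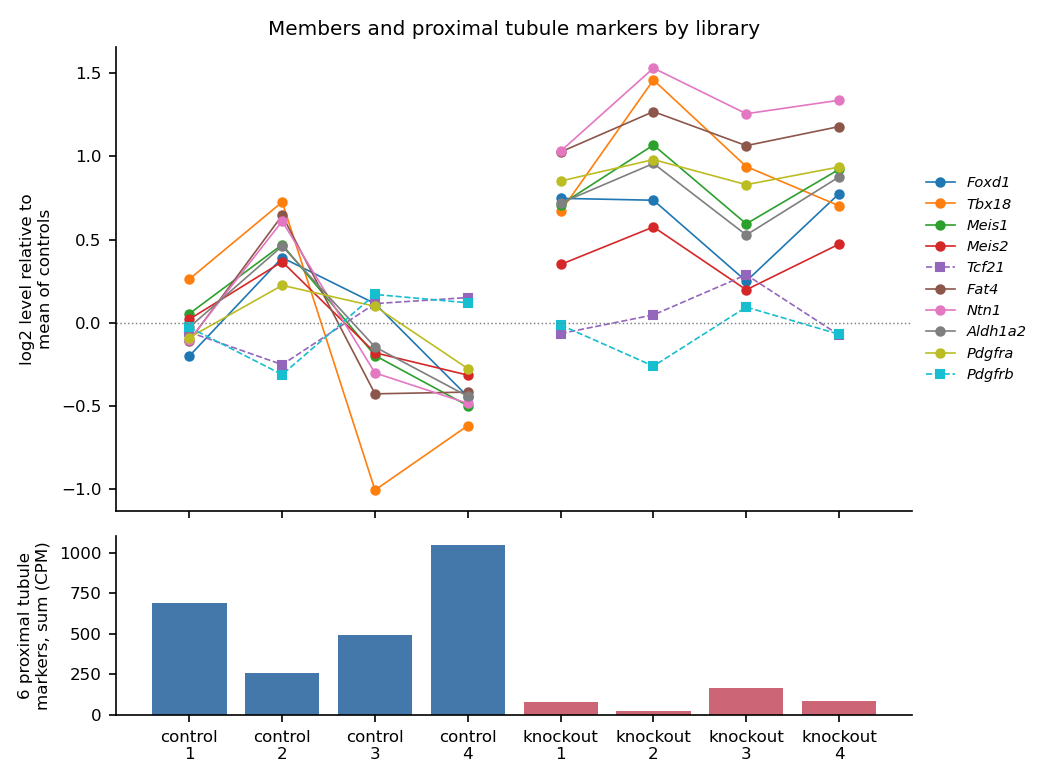
Top, log2 level of each of the 10 genes relative to its mean over the 4 controls, by library, with lines that only join the points of a gene within a group. Bottom, summed CPM of 6 proximal tubule markers (bars from 0), which run from 259 to 1049 CPM in controls and from 26.3 to 169 CPM in knockouts.

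The calls depended on single libraries. Pdgfra was called in all 8 fits made with 1 library removed, with log2 fold changes of 0.81 to 0.98 and adjusted p values of 0.000756 to 0.0315. Ntn1 was called in 6 of the 8, losing its call without control replicate 3 (adjusted p 0.0513) or knockout replicate 4 (0.0566). Fat4 was called in 3, and its adjusted p was 0.0502 to 0.0658 without control replicates 1 or 3 or knockout replicates 1, 2 or 4. Meis1, Aldh1a2 and Foxd1 were each called in 2, without control replicate 2 or knockout replicate 3, and otherwise had adjusted p values of up to 0.0845, 0.0828 and 0.124. Meis2 and Tbx18 were called without control replicate 2 (adjusted p 0.00550 and 0.0142). The count of called genes among the 10 was 2, 8, 1 and 3 without control replicates 1 to 4 and 2, 2, 6 and 1 without knockout replicates 1 to 4, while the share of all genes called ran from 0.819% to 37.4%. Without control replicate 2 and knockout replicate 3 together, 8 of the 10 were called, against 42.7% of all genes tested. With adrenal transcripts as a covariate Foxd1 and Aldh1a2 lost their calls (log2 fold changes 0.62 and 0.85, adjusted p 0.116 and 0.0514), and 4 of the 10 were called. With Y-linked transcripts as a covariate 6 were called.

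**Figure D4:**
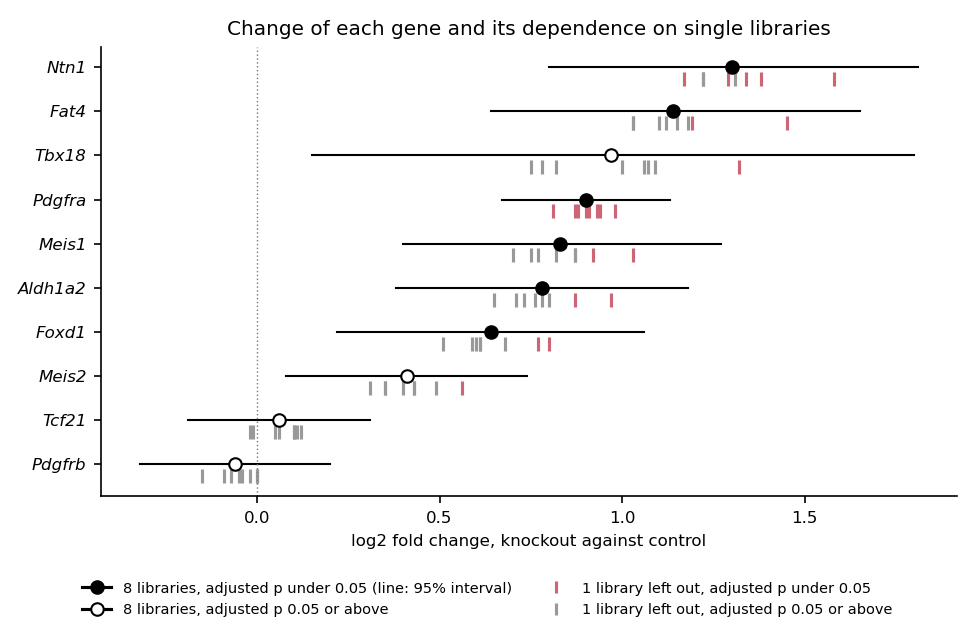
Log2 fold change of each gene with its 95% interval (circle and line; filled, adjusted p under 0.05), and below it the 8 values with 1 library left out (ticks; red, adjusted p under 0.05). The values for Pdgfra stay between 0.81 and 0.98 and are all red, and those of Tcf21 and Pdgfrb lie around 0.

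Further lists of stromal genes are read against all genes tested, of which 6.61% were called higher and 8.27% lower, with a median log2 fold change of 0.00. Of 16 other stromal transcription factors, 1 was called, Pbx3, a TALE factor that pairs with Meis proteins. It rose from 34.3 ± 5.98 to 51.2 ± 4.17 CPM (log2 fold change 0.58, adjusted p 0.0211). Nr2f2, an orphan nuclear receptor of the stroma, was at 338 ± 103 CPM in controls and 523 ± 56.3 CPM in knockouts and lay just outside the threshold (adjusted p 0.0502). The median log2 fold change was 0.37, and 6 genes were higher and 1 lower at an unadjusted p under 0.05. This count depended on the fit: DESeq2 called 7 of the 16, and 9 were called without control replicate 2.

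Derivatives of the stroma were followed in mural and fibroblast lists, and no difference between these lists was tested. Of 14 pericyte, mural and mesangial genes 1 was called, against 14.9% of all genes tested in either direction, with a median log2 fold change of −0.01. It was Gata3, a factor of mesangial cells and also of the collecting duct, which rose from 72.0 ± 15.2 to 106 ± 12.6 CPM (0.56, adjusted p 0.0364). Acta2, smooth muscle actin, and Itga8, an integrin of mesangial cells, had log2 fold changes of −0.22 and 0.27 (adjusted p 0.489 and 0.0860). The pericyte genes Rgs5 and Cspg4 had log2 fold changes of −0.65 and −0.39 (adjusted p 0.0540 and 0.0955). Ren1, the renin gene of juxtaglomerular cells, was at 53.4 to 369 CPM in controls and 4.07 to 115 CPM in knockouts (−2.04, adjusted p 0.148). At an unadjusted p under 0.05, 2 genes of this list were higher and 2 lower. Of 12 interstitial fibroblast genes 2 were called, both higher, with a median of 0.48, and 5 were higher and 0 lower at an unadjusted p under 0.05. Penk, the enkephalin precursor, rose from 286 ± 35.9 to 481 ± 53.3 CPM (0.75, adjusted p 0.0109), and Vim, the mesenchymal filament vimentin, from 593 ± 20.7 to 741 ± 62.3 CPM (0.32, adjusted p 0.0234). Counts of calls in these lists were larger without control replicate 2 (5 mural and 9 fibroblast genes) and smaller without knockout replicate 4 (0 and 1).

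**Figure D5:**
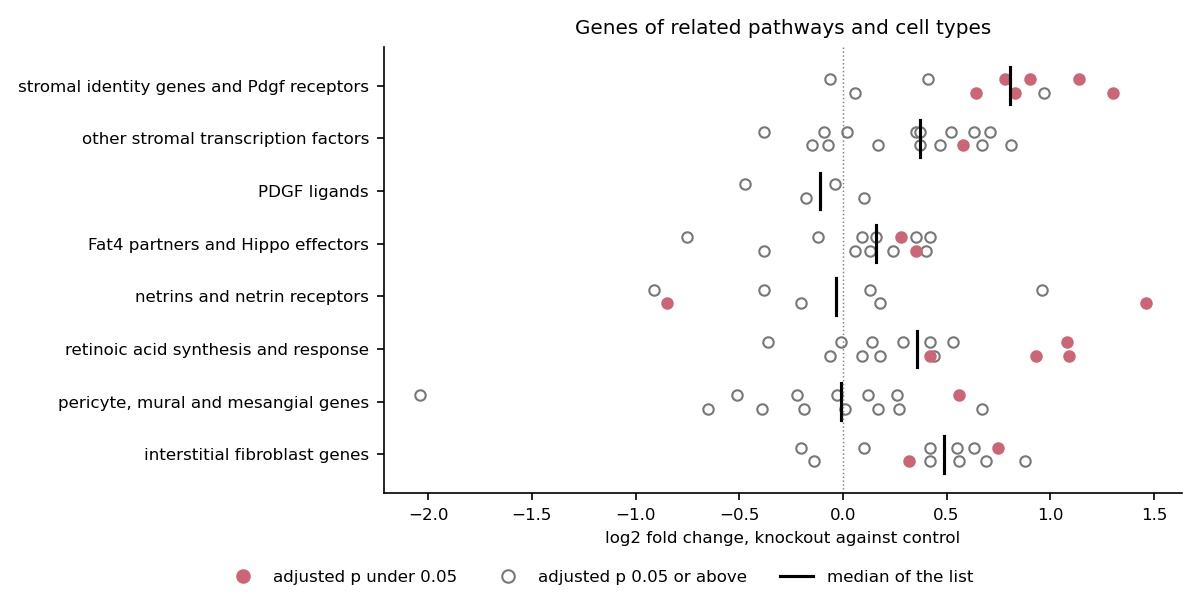
Log2 fold change of the 10 genes (top row) and of the tested genes of 7 related lists (points; red, adjusted p under 0.05), with the median of each list as a black bar. The median is 0.81 for the 10 genes, 0.48 for interstitial fibroblast genes, −0.01 for pericyte, mural and mesangial genes and −0.11 for Pdgf ligands.

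Genes with profiles most like those of the 10 were found by the root mean square difference of log2 CPM over the 8 libraries, each gene centred on its own mean, among 14188 genes. Within the set itself, Meis1 and Aldh1a2 lay close to each other (0.059 log2 units), the second nearest to Meis1 and the nearest to Aldh1a2. Ntn1 was the second nearest to Fat4 (0.111), but Fat4 was not among the 3 nearest to Ntn1. A gene outside the set was the nearest to both Fat4 (0.082) and Ntn1 (0.086). Bche was nearest to Meis1 (0.054), and Ror1, a Wnt receptor gene, was the third nearest to both Meis1 (0.065) and Aldh1a2 (0.064). Nearest to Pdgfra were Sel1l3 (0.076), Klf8 (0.099) and the leukocyte gene Ptprc (0.102), which rose from 20.3 to 38.6 CPM on average. The 6 leukocyte markers, Ptprc included, summed to 57.4 to 70.8 CPM in controls and 67.2 to 83.6 CPM in knockouts. Of the 5 tested, 4 had a log2 fold change above 0, the median was 0.09, and only Ptprc was called. Csf1r went the other way, from 31.6 to 24.0 CPM on average (log2 fold change −0.40, adjusted p 0.270). Nearest to Tcf21 was Arhgdib (0.028) and nearest to Pdgfrb was Pygl (0.031).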

How the data were processed

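Messenger RNA of 8 mouse kidneys, 4 labelled control and 4 labelled conditional knockout, was sequenced after oligo-dT capture, per the labels' protocols. The authors deposited whole-number read counts for 49315 Ensembl gene IDs, with exon coordinates and lengths, per the file headers. The submitters' processing notes name Trimmomatic 0.36, STAR 2.5.2b, featureCounts of Subread 1.5.2 and the build GRCm38. Strand and multi-mapping settings are not given in the sources used here. The table of the whole series was used, it held 0 columns of other samples, and 0 of its cells differed from the library files. Symbols came from GENCODE M21, where 48970 IDs matched and 345 did not.

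Library sizes were adjusted with TMM factors, low counts removed by filterByExpr at its defaults (18485 genes kept), and genotypes compared in edgeR 4.0.16 (R 4.3.3) by its quasi-likelihood F test, without covariates, with Benjamini-Hochberg adjustment over all genes tested. Levels (CPM) are counts scaled to a TMM-adjusted library of 1000000, also divided by exon length in kilobases where genes are compared. Standard errors were obtained from the F statistic. Ratios within libraries were compared by exact permutation. Total counts of 19524945 to 28544511 per library set the counting precision, and the number of kidneys limits it further. The labels do not say that replicates are separate animals, so p values measure the spread between these samples, part of which may be technical. Y-linked transcripts were near 0 in some libraries of each group and not in others, so neither group came from a single animal. No 2 libraries agreed within sampling noise (chi-square per degree of freedom at least 11.0).

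The members and lists were chosen with earlier results of these data known. Named are Kdm1a, all members, per related list the 4 called genes with the smallest adjusted p (where fewer than 2 are called, also the 2 most abundant genes), and for each member the 3 genes of at least 1 CPM with the most similar profile. 1 gene that this rule names is not reported here. Other genes named were chosen after their values were seen. Alternatives were DESeq2 1.42.0 and its size factors, limma-voom (limma 3.58.1) with sample weights, other filters, a replicate block, Y-linked and adrenal covariates, and libraries left out. Library totals in place of TMM were added after the data were seen. The statistics were tested on simulated counts.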

Additional observations from a re-analysis of the deposited data

Results flagged for a closer look

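Foxd1 in knockout replicate 3, at 35.9 CPM, lay far below the other 3 knockouts, which were at 50.3 to 51.7 CPM. Its gap to the nearest of them took 0.907 of the range of the group, above Dixon's 95% critical value for 4 samples. It was the one such sample among 26 groups examined (Kdm1a, the 10 genes and the 2 ratios, in each genotype), where chance flags about 1 group in 20.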

How the results depend on the processing

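Pdgfra kept its direction and call in all 18 alternatives, and Ntn1, Fat4 and Meis1 in all that left out no library. The Meis2 log2 fold change passed the threshold with DESeq2 (0.40, adjusted p 0.0459), limma-voom with sample weights (0.55, adjusted p 0.00241) and the replicate block (0.43, adjusted p 0.0337), as did that of Tbx18 (0.97, 1.36 and 1.08; adjusted p 0.0311, 0.00571 and 0.0344). With the adrenal covariate Foxd1 (0.62) and Aldh1a2 (0.85) did not pass. Tcf21 changed sign with limma-voom (−0.05) and without control replicate 2 (−0.02), knockout replicate 3 (−0.01) or both (−0.11). Pdgfrb changed sign with library totals (0.02) and stood at 0.00 without control replicate 3 or knockout replicate 2. The causes were not tested.

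With libraries left out, including control replicate 2 and knockout replicate 3 together, log2 fold changes ran from 0.51 to 0.90 for Foxd1, 0.75 to 1.33 for Tbx18, 0.70 to 1.10 for Meis1, 0.31 to 0.62 for Meis2, −0.11 to 0.12 for Tcf21, 1.03 to 1.47 for Fat4, 1.17 to 1.6 for Ntn1, 0.65 to 1.04 for Aldh1a2, 0.81 to 1.0 for Pdgfra and −0.21 to 0.00 for Pdgfrb. The Pdgfra to Pdgfrb ratio ran from 0.83 to 1.22, with an exact permutation p of 0.0571 without any 1 knockout and 0.100, the smallest 3 against 3 allows, without both libraries. The Meis1 to Meis2 ratio ran from 0.39 to 0.49 (exact permutation p 0.100 without both). Genes called numbered 4494 with DESeq2, 8302 with limma-voom, 1212 with the adrenal covariate and 153 to 7903 with libraries left out. With library totals 57.2% of calls were higher, against 44.4% with TMM, and the median of all genes moved by 0.08.

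In the order other stromal transcription factors, Pdgf ligands, Fat4 and Hippo, netrins, retinoic acid, mural and fibroblast genes, calls numbered 7, 1, 3, 4, 5, 2 and 4 with DESeq2; 10, 1, 8, 6, 8, 7 and 9 with limma-voom; 3, 0, 1, 3, 4, 2 and 2 without the filter; 3, 0, 2, 2, 4, 1 and 2 at a mean of 1 CPM; 7, 1, 3, 2, 5, 3 and 6 with the replicate block; 2, 0, 2, 1, 4, 2 and 2 with the Y-linked covariate; 0, 0, 1, 1, 2, 1 and 4 with the adrenal covariate; and 1, 0, 3, 2, 4, 2 and 3 with library totals. With libraries left out the ranges were 0 to 11, 0 to 1, 0 to 7, 0 to 6, 1 to 7, 0 to 6 and 1 to 9. Without control replicate 2 they were 9, 1, 5, 6, 7, 5 and 9, and without knockout replicate 4 they were 0, 0, 0, 0, 1, 0 and 1.

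Deviations from the group means had correlations of −0.11, 0.33, 0.23 and −0.06 between same-numbered samples. Between control and knockout samples of different number they ran from −0.47 to 0.40. These values do not settle whether same-numbered samples share more than a number. Under the replicate block 8 of the 10 genes and 3229 of all genes were called, and the ratios kept differences of 0.96 and 0.44 (exact permutation p 0.125, the smallest 4 pairs allow). Tbx18 rested on the fewest reads, 62 to 278 per library.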
